A study of Mus musculus with 5 samples.

Results

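OT-I CD8+ T cells sorted after 72 h of co-culture with peptide-loaded dendritic cells (DCs) and myeloid-derived suppressor cells (MDSCs) were compared with OT-I cells sorted after 24 h of the same kind of co-culture. The cells were chosen by their library in the deposited cell annotation. They were 4942 cells of the library 72hrs-MDSC and 2247 cells of the library 24hrs-MDSC, together 7189 of the 13629 cells in the table of all time points. The OT-I cells came from spleen and lymph nodes of mice of the strain C57BL/6-Tg(TcraTcrb)1100Mjb/J and carry a transgenic T cell receptor for the ovalbumin peptide SIINFEKL. All 4 co-culture libraries held OT-I cells stimulated in RPMI medium by DCs loaded with that peptide, with MDSCs added (72hrs-MDSC, 24hrs-MDSC) or left out (72hrs-DC, 24hrs-DC). The cells were enriched by flow cytometry and sequenced on the 10x Genomics droplet platform. The sources used here do not state where the MDSCs came from or whether a library pooled several cultures or animals. Each group was 1 library, so differences stand without replicates or tests and each ratio sets 1 library against another.

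As background, a CD8+ T cell that meets its peptide passes through a burst of receptor-driven transcription, in which it makes cytokines, chemokines and immediate early factors and builds ribosomes before it divides. Over the following days it stops transcribing most early cytokines, cycles, and takes on genes of killing, adhesion and migration. MDSCs are immature myeloid cells known for restraining T cell responses, in part by changing the nutrients and oxidants around the T cells.

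The deposited values were back-transformed to whole numbers that the authors had adjusted to a nearly constant total per cell. That total spanned 13669 to 15923 in 72hrs-MDSC and 13433 to 15975 in 24hrs-MDSC, so the molecules sequenced per cell are unknown. Levels are given in adjusted counts per 1000000 adjusted counts of the library, written CPM, and a ratio is always 72 h over 24 h. A median cell had 3111 genes above 0 in 72hrs-MDSC and 3621 in 24hrs-MDSC. Ribosomal protein genes took 39.9% of the adjusted counts in 72hrs-MDSC and 33.8% in 24hrs-MDSC, and mitochondrially encoded genes 1.92% and 1.86%. The CD8 label held in both libraries: Cd8b1, the CD8 beta chain, stood at 926 and 654 CPM and was above 0 in 99.9% and 99.3% of the cells of 72hrs-MDSC and 24hrs-MDSC, whereas Cd4 was above 0 in 10 and 2 cells. Cells carrying 2 or more rare markers of another cell type numbered 0 to 12 over 7 marker lists in 72hrs-MDSC and 0 to 14 in 24hrs-MDSC. The summed level of the granulocyte list was 1.77 CPM in 72hrs-MDSC, where Lcn2 and Wfdc21 were at 0, and 4.52 CPM in 24hrs-MDSC, over 7 markers. That of the monocyte and macrophage list was higher, at 73.0 CPM in 72hrs-MDSC, where Nos2 was at 0, and 25.3 CPM in 24hrs-MDSC, over 12 markers, with Ctss at 47.6 against 16.8 CPM, Cd68 at 18.8 against 2.49 CPM and Lyz2, a defining marker, at 0.0933 against 1.59 CPM. The part of these transcripts in the results was not tested. S100a8, an abundant granulocyte transcript that T cells should lack, was above 0 in 0.688% of the cells of 72hrs-MDSC and 3.43% of the cells of 24hrs-MDSC, taken here as the share that stray RNA can reach. The libraries 72hrs-MDSC and 24hrs-MDSC shared 18 cell barcodes, which were kept as separate cells.

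Between 24 h and 72 h with MDSCs more genes moved down than up. A level of 50 CPM was reached by 2974 genes in at least 1 of the libraries. In 72hrs-MDSC 271 of them (9.11%) were raised by 2-fold or more and 819 (27.5%) were lowered by 2-fold or more. A ratio past 4-fold was reached by 106 genes upward and 134 downward. The median log2 ratio of the 1846 genes at 50 CPM or more in both libraries was -0.23, and that of the 93 ribosomal protein genes was 0.25, with 71 of the 93 above a ratio of 1. When all log2 ratios were centred on that median the counts became 359 higher and 590 lower, so the balance of the directions depends on the scaling. The lowest ratios belonged to secreted products of a freshly stimulated T cell: Ccl3, Ifng, Ccl4, Xcl1 and Il2. The highest belonged to S100a4 and S100a6, small calcium-binding proteins of motile cells, to Cox6b2, a respiratory chain subunit, and to Dcxr, a carbonyl reductase.

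**Figure D1:**
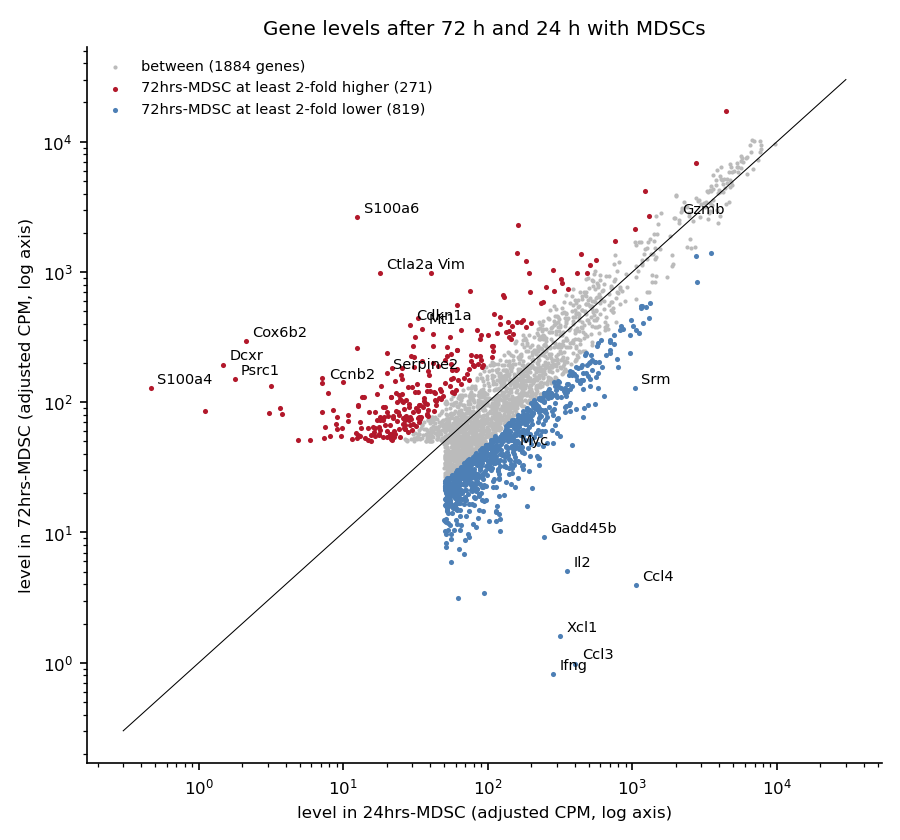
Each point is a gene that reaches 50 CPM, with its level in 24hrs-MDSC on the x axis and in 72hrs-MDSC on the y axis (adjusted CPM, log axes), and the line marks equal levels. The 271 genes at least 2-fold higher in 72hrs-MDSC are red, led by S100a4 and S100a6, and the 819 at least 2-fold lower are blue, with the chemokine and cytokine genes at the bottom.

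The 12 genes with the largest upward ratio were not a single functional group. S100a4 stood at 128 CPM in 72hrs-MDSC and 0.464 CPM in 24hrs-MDSC (log2 ratio 8.11), and S100a6 at 2632 and 12.5 CPM (7.72). The genes for both lie on chromosome 3 in GENCODE M21 (GRCm38), S100a4 at chr3:90603771-90606045 and S100a6 at chr3:90612882-90624181. Cox6b2 reached 295 CPM in 72hrs-MDSC, against 2.12 CPM in 24hrs-MDSC (7.12), Dcxr 194 against 1.48 CPM (7.04), and Psrc1, a spindle-associated protein, 151 against 1.77 CPM (6.41). Ctla2b and Ctla2a, inhibitors of cysteine proteases first described in activated T cells, were at 85.6 and 979 CPM in 72hrs-MDSC and at 1.10 and 17.9 CPM in 24hrs-MDSC. Vim, the intermediate filament vimentin, was at 975 CPM in 72hrs-MDSC and 40.6 CPM in 24hrs-MDSC. Phf11b, an interferon-responsive PHD finger gene, was at 80.5 against 3.74 CPM, Glipr1 at 89.9 against 3.65 CPM, Tmem108 at 82.8 against 3.07 CPM and 1500009L16Rik at 132 against 3.16 CPM. In 24hrs-MDSC S100a4, Cox6b2, Dcxr, Psrc1 and Ctla2b were each above 0 in at most 3.07% of the cells, below the 3.43% of S100a8, so their ratios are set against a level no higher than stray RNA. The same holds for Aldoc, Mt3, Trp53inp1, Cdkn3, Gzmf and H2-Eb1, which are named with their lists. Ctla2a and Ctla2b are close relatives, and the sources used here do not say how reads fitting both were counted.

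Gene lists for processes of activated T cells were described by the number of members past 1.5-fold among those reaching 10 CPM in at least 1 library. For all 7125 genes at that level, 16.9% were past 1.5-fold upward in 72hrs-MDSC and 42.0% downward, and the median log2 ratio was -0.41. The course without MDSCs, 72hrs-DC over 24hrs-DC, shares no library with the course with MDSCs and is given beside it: of 7336 genes, 23.1% passed 1.5-fold upward and 34.8% downward, and their median was -0.23. The members and lists were chosen with earlier results of these data known, so a list's count is a description and no evidence for its direction.

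**Figure D2:**
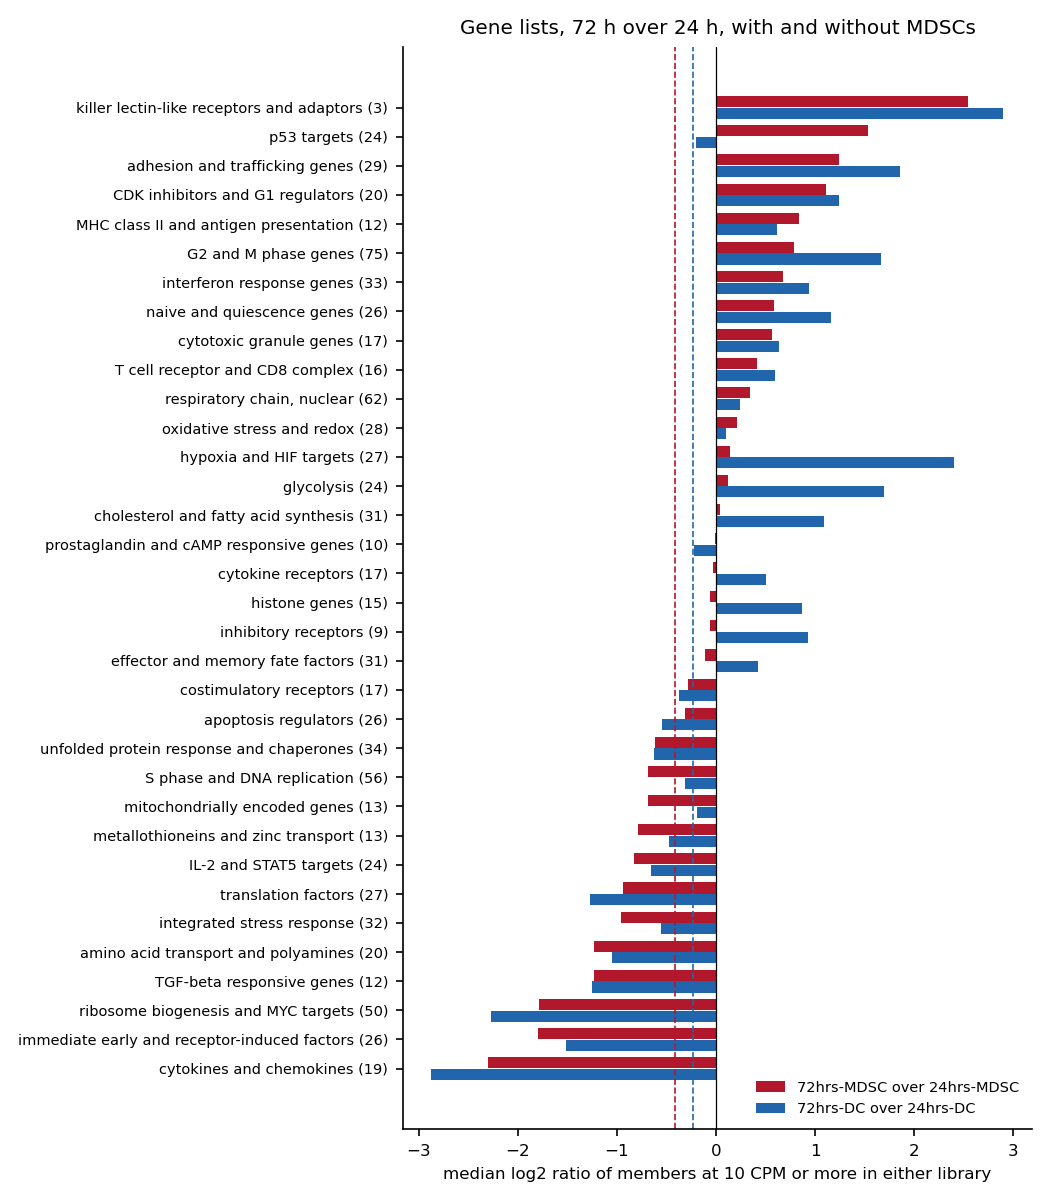
Bars give the median log2 ratio, 72 h over 24 h, of each gene list's members that reach 10 CPM, with MDSCs (red, upper bar) and without (blue, lower bar). Dashed lines mark the medians of all genes at that level, -0.41 with MDSCs and -0.23 without, and the numbers in brackets count the members with MDSCs. The bar of the p53 targets is positive with MDSCs and negative without. Bars of the inhibitory receptors, histone genes, cytokine receptors and fate factors are slightly negative with MDSCs and positive without. Those of the hypoxia and glycolysis lists differ most in length.

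Most cytokine and chemokine transcripts fell between 24 h and 72 h with MDSCs. Of 19 measured members, 14 were lower, 3 higher and 2 between, with a median log2 ratio of -2.30, against -2.87 without MDSCs. Ccl3 and Ccl4, chemokines that draw in other leukocytes, were at 0.986 and 3.97 CPM in 72hrs-MDSC and at 404 and 1057 CPM in 24hrs-MDSC. Ccl4 was above 0 in 141 cells of 72hrs-MDSC (2.85%, exact 95% interval 2.41 to 3.36%), against 1738 cells of 24hrs-MDSC (77.3%, 75.6 to 79.1%). Ifng, the effector cytokine interferon gamma, was at 0.813 CPM in 72hrs-MDSC and 283 CPM in 24hrs-MDSC, and above 0 in 0.668% and 28.5% of the cells. The 72 h share of Ifng was no larger than that of S100a8 in the same library. Il2, the growth factor interleukin 2, was at 5.08 CPM in 72hrs-MDSC and 355 CPM in 24hrs-MDSC and was above 0 in 7.28% and 43.6% of the cells. These intervals cover counting error only.

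Other secreted factors moved the same way, with few exceptions. Xcl1, which attracts cross-presenting dendritic cells, fell to 1.61 CPM in 72hrs-MDSC, against 315 CPM in 24hrs-MDSC. Tnf, tumour necrosis factor, stood at 8.82 CPM in 72hrs-MDSC and 69.0 CPM in 24hrs-MDSC. Ccl5, a chemokine of effector and memory cells, was at 11.9 CPM in 72hrs-MDSC and 51.3 CPM in 24hrs-MDSC, whereas without MDSCs it was at 67.4 CPM in 72hrs-DC and 66.2 CPM in 24hrs-DC. Il22 was listed at 0 in 72hrs-MDSC and stood at 12.1 CPM in 24hrs-MDSC, where 35 cells (1.56%) had it above 0. The 3 higher members were Ltb, lymphotoxin beta, at 269 and 109 CPM in 72hrs-MDSC and 24hrs-MDSC, Il16 at 44.5 and 16.7 CPM, and Tnfsf8, the ligand of CD30, at 28.6 and 6.78 CPM. Tnfsf8 moved the other way without MDSCs, with 7.92 CPM in 72hrs-DC and 26.6 CPM in 24hrs-DC.

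Immediate early and receptor-induced genes fell almost without exception: 25 of 26 measured members were lower, none was higher, and the median log2 ratio was -1.79 (-1.51 without MDSCs). Nfkbid, an atypical inhibitor of NF-kappa-B, was at 3.44 CPM in 72hrs-MDSC and 94.8 CPM in 24hrs-MDSC. Nr4a3 and Nr4a1, nuclear receptors that report T cell receptor signals, were at 1.45 and 3.78 CPM in 72hrs-MDSC and at 28.5 and 46.0 CPM in 24hrs-MDSC. Irf4, a transcription factor whose level tracks receptor signal strength, was at 19.2 CPM in 72hrs-MDSC and 87.2 CPM in 24hrs-MDSC. Myc, which drives growth of activated T cells, was at 43.5 CPM in 72hrs-MDSC and 151 CPM in 24hrs-MDSC. The member between was Batf3, at 83.3 and 66.1 CPM. Summed over the 37 listed genes, a median cell held 14 adjusted counts in 72hrs-MDSC and 48 in 24hrs-MDSC, and 88.9% of the 72hrs-MDSC cells lay below the 5th percentile of 24hrs-MDSC. Further genes of early signalling were among the 12 largest downward ratios: Gadd45b, a stress and signalling adaptor, at 9.27 against 246 CPM, the phosphatase gene Dusp2 at 16.0 against 185 CPM, the kinase gene Pim3 at 10.2 against 122 CPM, and Tagap, a GTPase-activating protein of T cells, at 3.12 against 62.6 CPM. The remaining genes in that group were Trmt61a, a tRNA methyltransferase subunit, at 6.79 against 67.9 CPM, and Marcksl1, an actin-binding protein, at 12.6 against 121 CPM.

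Cytotoxic granule genes were in part higher at 72 h. Of 17 measured members 8 were higher and 4 lower (median log2 ratio 0.57, against 0.63 without MDSCs). Gzmb, granzyme B, was the most abundant, at 2592 CPM in 72hrs-MDSC and 1987 CPM in 24hrs-MDSC, a difference within 1.5-fold. It was above 0 in 4940 of 4942 cells of 72hrs-MDSC and in 2072 of 2247 cells of 24hrs-MDSC (92.2%). Gzma, granzyme A, stood at 77.9 CPM in 72hrs-MDSC and 22 CPM in 24hrs-MDSC and was found in 15.4% and 4.01% of the cells, so its level came from a minority at both times. Gzmf and Gzmc, granzymes F and C, were at 15.2 and 22.1 CPM in 72hrs-MDSC and at 1.28 and 4.61 CPM in 24hrs-MDSC, Nkg7, a granule membrane protein, at 1370 against 441 CPM, and Ctsw, cathepsin W, at 113 against 24.2 CPM. Prf1, perforin, was at 0.733 CPM in 72hrs-MDSC and 0.522 CPM in 24hrs-MDSC, too low to compare. The lower members included Serpinb9, the inhibitor that shields a killer cell from its own granzyme B, at 21.9 against 201 CPM, and Ctsc, which activates granzymes, at 23.2 against 48.9 CPM.

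Genes of the T cell receptor and CD8 complex were higher in part: 6 of 16 members were higher and 1 lower, with a median of 0.41. Cd3g and Cd3d, chains of CD3, were at 642 and 1031 CPM in 72hrs-MDSC and at 130 and 281 CPM in 24hrs-MDSC, and Fyb, an adaptor that links the receptor to integrins, at 150 against 25.7 CPM. Lat, the membrane adaptor downstream of the receptor, was lower, at 288 against 526 CPM. Among 17 costimulatory receptors 3 were higher and 6 lower (median -0.29), shares near the 16.9% and 42.0% of all genes. Tnfrsf18, the receptor GITR, was at 413 against 169 CPM and Cd2 at 139 against 64.8 CPM. Cd6 was at 22.5 against 153 CPM, Cd5 at 32.8 against 101 CPM and the activation marker Cd69 at 42.0 against 115 CPM. Of 9 inhibitory receptors 3 were higher and 2 lower. Ctla4 was at 48.8 CPM in 72hrs-MDSC and 17.3 CPM in 24hrs-MDSC, Vsir at 33.8 and 12.6 CPM, and Klrd1, the CD94 lectin receptor, at 39.9 and 6.81 CPM. Cd200 was at 17.7 against 96.7 CPM and Pdcd1, the receptor PD-1, at 2.98 against 13.2 CPM. Lag3 lay between, at 46.6 against 61.1 CPM, whereas without MDSCs it was at 166 CPM in 72hrs-DC and 75.9 CPM in 24hrs-DC. Havcr2, the receptor TIM-3, was near 0 in both, at 0.480 and 0.232 CPM. Of the killer lectin-like receptors and adaptors 3 reached 10 CPM and were higher: Klrk1, the receptor NKG2D, at 38 against 6.29 CPM, its adaptor Hcst at 78.7 against 27.2 CPM, and Klrd1. With no minimum level the list's median turned to -0.44, and Klrg1 and Klrc1, both low, were at 0.0133 and 1.03 CPM in 72hrs-MDSC and at 0.261 and 3.48 CPM in 24hrs-MDSC.

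Of 17 cytokine receptor genes 5 were higher, 2 lower and 10 between, with a median of -0.03 (0.50 without MDSCs). Il7r, the receptor for the survival cytokine interleukin 7, was at 64.1 CPM in 72hrs-MDSC and 7.51 CPM in 24hrs-MDSC, and Ifngr1 at 161 against 24.9 CPM. The interleukin 2 receptor chains lay between, Il2ra at 135 against 179 CPM and Il2rb at 58.8 against 83.0 CPM. Of 24 targets of interleukin 2 and STAT5 4 were higher and 13 lower (median -0.83), against 16.9% and 42.0% of all genes: the kinase gene Pim2 was at 34.5 against 163 CPM, and Socs2, a feedback inhibitor, at 31.1 against 6.12 CPM.

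Of 31 transcription factors of effector and memory fate 7 were higher and 12 lower (median -0.11, against 0.43 without MDSCs), shares near the 16.9% and 42.0% of all genes. Tbx21, which encodes T-bet, stood at 5.89 CPM in 72hrs-MDSC and 55.5 CPM in 24hrs-MDSC, Eomes at 4.94 against 34.3 CPM, and Stat5a at 14.5 against 74.0 CPM. Id2, a factor of effector differentiation, was at 61.0 against 65.6 CPM, and without MDSCs at 162 CPM in 72hrs-DC and 71.5 CPM in 24hrs-DC. Irf2 was at 45.8 against 15.0 CPM and Ikzf2, the factor Helios, at 32.8 against 15.0 CPM. Prdm1, which encodes Blimp-1, was at 2.80 against 0.348 CPM, below the level used for counting. Of 26 naive and quiescence genes 13 were higher and 6 lower (median 0.58). Pik3ip1, an inhibitor of PI3 kinase, was at 36.2 against 3.22 CPM and Ms4a4b, a membrane protein that slows T cell division, at 560 against 61.5 CPM. Klf2, a factor of quiescent T cells, was at 22.7 CPM in 72hrs-MDSC and 11 CPM in 24hrs-MDSC, and without MDSCs at 140 CPM in 72hrs-DC and 20.5 CPM in 24hrs-DC. Gimap7, a small GTPase of the immunity-associated family, was at 226 against 29.5 CPM. Among the lower members Tcf7, the factor TCF1 of naive and memory cells, was at 68.0 against 130 CPM. Ccr7, the lymph node homing receptor, was at 114 against 298 CPM, and Bach2, a repressor of effector genes, at 10.9 against 44.5 CPM.

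Most measured adhesion and trafficking genes rose, with 17 of 29 members higher and 4 lower and a median of 1.25 (1.86 without MDSCs). Besides S100a4, S100a6 and Vim, the lectin gene Lgals1, galectin 1, was at 2286 CPM in 72hrs-MDSC and 161 CPM in 24hrs-MDSC. The lower members included Itgb1, the integrin beta 1 chain, at 18.1 against 63.5 CPM, Icam1 at 13.2 against 45.2 CPM and Cd44, an adhesion receptor often used as an activation marker, at 31.9 against 69.5 CPM. Summed over the 42 listed genes, a median cell held 168 adjusted counts in 72hrs-MDSC and 37 in 24hrs-MDSC. Of the 72hrs-MDSC cells 99.8% lay above the 95th percentile of 24hrs-MDSC, and 99.4% of the 72hrs-DC cells lay above that of 24hrs-DC. The shift of this sum thus covered nearly all cells in each course, but a few abundant genes weigh most in it. Of 12019 CPM summed over the list in 72hrs-MDSC, S100a6 held 2632, Lgals1 2286 and S100a10 1404 CPM. Among genes at 50 CPM or more in 72hrs-MDSC, S100a6 had the highest ratio of variance to mean across cells, 64.9. It had 19 adjusted counts in the median cell and 146 at the 95th percentile.

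Targets of p53, the factor that stops the cycle or starts death in stressed cells, were higher after 72 h with MDSCs. Of 24 measured members 17 were higher, 3 lower and 4 between, with a median log2 ratio of 1.54. Without MDSCs 9 of 20 members were higher and 8 lower, with a median of -0.20. Cdkn1a, which encodes the cycle inhibitor p21, was at 395 CPM in 72hrs-MDSC and 28.9 CPM in 24hrs-MDSC, and at 177 CPM in 72hrs-DC and 73.2 CPM in 24hrs-DC. Phlda3, a brake on AKT, was at 87.6 CPM in 72hrs-MDSC and 8.50 CPM in 24hrs-MDSC, and at 12.4 CPM in 72hrs-DC and 36.7 CPM in 24hrs-DC. Ccng1, cyclin G1, was at 272 CPM in 72hrs-MDSC and 41.8 CPM in 24hrs-MDSC, and at 62.9 CPM in 72hrs-DC and 74.6 CPM in 24hrs-DC. Each of these genes was highest in 72hrs-MDSC among the 4 co-culture libraries. Besides Dcxr and Psrc1, Trp53inp1, a regulator of autophagy and death, was at 28.2 against 0.754 CPM, and Bbc3, the death activator PUMA, was at 38.4 against 4.58 CPM. Ak1, adenylate kinase 1, counted among the higher members, was at 18.3 CPM in 72hrs-MDSC and listed at 0 in 24hrs-MDSC. The lower members at 20 CPM or more were Plk3, a stress-responsive kinase, at 2.33 against 35.1 CPM, and the nuclease gene Aen at 57.6 against 91.8 CPM. Trp53 itself was at 106 CPM in 72hrs-MDSC and 140 CPM in 24hrs-MDSC.

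The p53 list was raised across most cells. Summed over 30 genes a median cell held 32 adjusted counts in 72hrs-MDSC and 12 in 24hrs-MDSC, with 11 in 72hrs-DC and 13 in 24hrs-DC. Of the 72hrs-MDSC cells 80.9% lay above the 95th percentile of 24hrs-MDSC, against 1.25% of the 72hrs-DC cells above that of 24hrs-DC. Cells of each library were split into 3 groups of equal size by their summed G2 and M phase list value, leaving Gtse1, which stands in both lists, out of the p53 sum. The median p53 sum was 31, 31 and 33 in the lowest, middle and highest of these groups in 72hrs-MDSC and 12 in each group of 24hrs-MDSC, so it was as large in cells of low as in cells of high mitotic gene level. The promoter of Cdkn1a is printed because this gene encodes a direct inhibitor of the cycle. The window upstream of its first annotated start holds a match to a pair of p53 half-site cores set 6 bases apart, and the window of a second start, at chr17:29093519-29093818, holds none. A core is C, then A or T at each of the middle positions, then G, and the capitals mark both cores with the bases between. The window with the match, printed here, covers chr17:29090729-29091028, plus strand, in RefSeq on GRCm38.p6, from 250 bases before the start to 50 after it.
Cdkn1a: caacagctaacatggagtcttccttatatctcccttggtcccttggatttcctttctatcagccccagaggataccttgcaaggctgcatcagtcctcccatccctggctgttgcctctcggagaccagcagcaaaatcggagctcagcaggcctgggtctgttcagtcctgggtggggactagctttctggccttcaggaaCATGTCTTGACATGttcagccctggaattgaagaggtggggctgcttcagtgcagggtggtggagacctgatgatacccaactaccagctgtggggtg
Such a pair was found on either strand in 5 of 22 list members with a RefSeq promoter and in 6.58% of 10165 genes of the table with one. A match describes letters in this window and does not show that p53 was bound there.

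**Figure D3:**
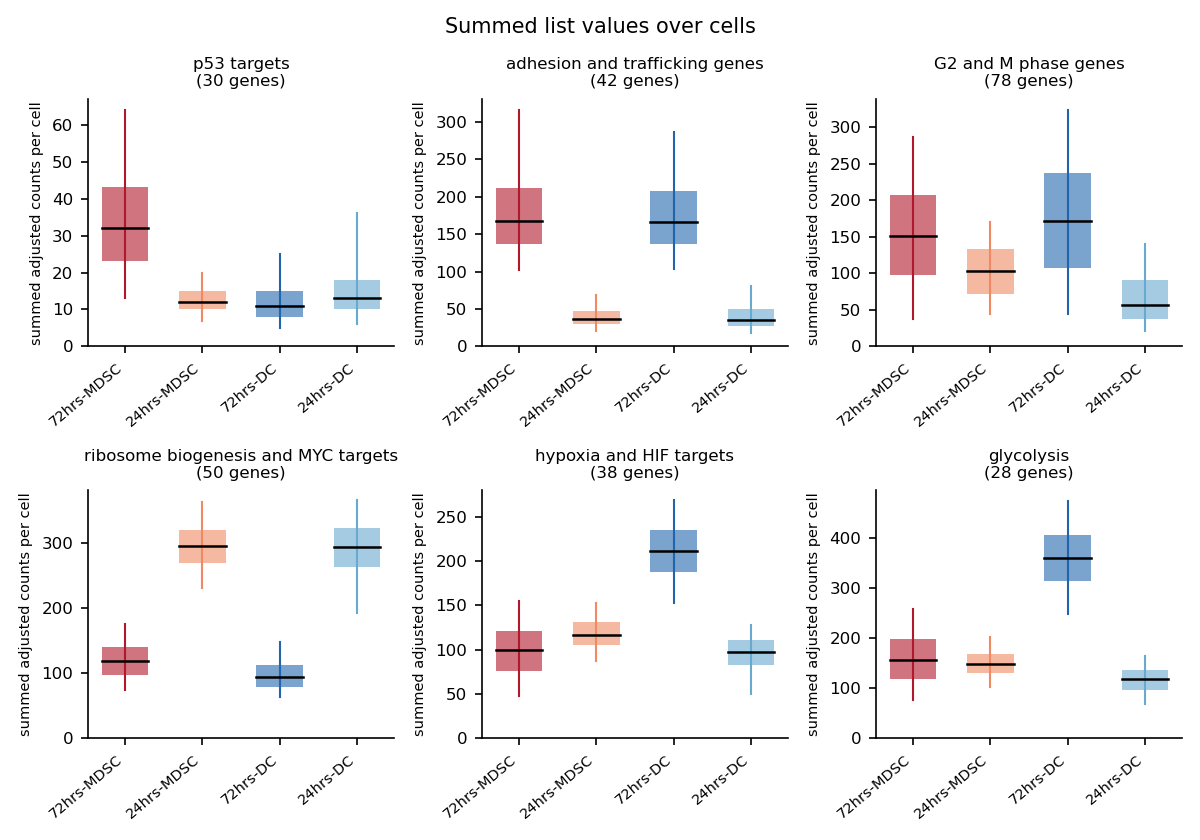
Boxes give the 25th to 75th percentile over cells of the summed adjusted counts of 6 gene lists, with the median as a black line and whiskers to the 5th and 95th percentile, in the 4 co-culture libraries. The p53 sum has a median of 32 in 72hrs-MDSC and 11 to 13 in the other libraries, whereas the hypoxia and glycolysis sums have medians of 212 and 360 in 72hrs-DC and 99 and 156 in 72hrs-MDSC.

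Genes of G2 and M phase were higher and genes of DNA replication lower. Of 75 G2 and M phase genes 44 were higher and 1 was lower (median 0.78, against 1.66 without MDSCs). The median with MDSCs turned to -0.17 among cells below 1 common G2 and M phase sum, a selection made on these same genes. Ccnb2, cyclin B2, which pairs with CDK1 to enter mitosis, was at 140 CPM in 72hrs-MDSC and 7.16 CPM in 24hrs-MDSC, Cenpa, the centromeric histone, at 240 against 19.9 CPM, and the noncoding transcript Lockd at 83.8 against 7.13 CPM. Other markers in common use had smaller ratios: Mki67 was at 90.3 CPM in 72hrs-MDSC and 55.1 CPM in 24hrs-MDSC and Top2a at 272 against 221 CPM, whereas without MDSCs Mki67 was at 135 CPM in 72hrs-DC and 19.1 CPM in 24hrs-DC and Top2a at 370 against 114 CPM. Among the 72hrs-MDSC cells 40.8% had a summed G2 and M phase value above the 95th percentile of 24hrs-MDSC and 7.24% one below its 5th percentile, so the cells were spread more widely after 72 h. Of 56 S phase and replication genes 34 were lower and 0 higher (median -0.69, against -0.31 without MDSCs). E2f1, which switches on replication genes, was at 20.7 against 77.7 CPM, the exonuclease gene Exo1 at 10.6 against 42.2 CPM and Orc1, of the origin recognition complex, at 6.47 against 23.1 CPM. Of 15 measured histone genes 4 were higher and 6 lower, against 16.9% and 42.0% of all genes.

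Genes that hold or release the cycle in G1 moved in both directions, 11 higher and 7 lower of 20. The list's median was 1.11 and turned to -0.73 at a minimum level of 50 CPM. Cdkn3, a CDK phosphatase, was at 26.4 against 0.783 CPM and Mxd3, an antagonist of MYC, at 31.6 against 4.35 CPM. Max, the partner of MYC, was at 35.5 against 155 CPM, Ccnd2, cyclin D2, at 340 against 1110 CPM and E2f4 at 78.9 against 230 CPM. The promoter of Ccnb2 is shown because it has the largest ratio of the G2 and M phase list and carries both kinds of element for which promoters of this class are known. It lies at chr9:70421505-70421804 on the minus strand in RefSeq (GRCm38.p6), and capitals mark CCAAT and the cell cycle homology motif TTTGAA, searched on both strands and not overlapping here.
Ccnb2: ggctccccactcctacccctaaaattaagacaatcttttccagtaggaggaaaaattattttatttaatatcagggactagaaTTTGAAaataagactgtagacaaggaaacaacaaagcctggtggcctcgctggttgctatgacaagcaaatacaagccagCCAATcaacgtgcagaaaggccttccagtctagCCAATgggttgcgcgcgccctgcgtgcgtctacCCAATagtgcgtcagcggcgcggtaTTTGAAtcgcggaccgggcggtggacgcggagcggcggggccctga
The window held 3 CCAAT and 2 TTTGAA matches. CCAAT was found in 48 of 63 list members with a promoter and in 42.8% of all 10165 genes, and TTTGAA in 43 of 63 and in 14.3%.

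Growth genes fell. Of 50 ribosome biogenesis genes and MYC targets 48 were lower and 0 higher (median -1.79, against -2.27 without MDSCs). Polr1b, a subunit of RNA polymerase I, was at 4.84 CPM in 72hrs-MDSC and 41.0 CPM in 24hrs-MDSC, Grwd1, a ribosome assembly factor, at 12.3 against 101 CPM, and Srm, spermidine synthase, at 129 against 1040 CPM. The summed list value of 99.9% of the 72hrs-MDSC cells lay below the 5th percentile of 24hrs-MDSC, with medians of 118 and 294 adjusted counts. Of 27 translation factors 17 were lower and 2 higher (median -0.94): Eif5 was at 96.3 against 554 CPM and Eif6 at 128 against 579 CPM, while Eef1a1, the abundant elongation factor, was higher at 6065 against 3830 CPM. Of 20 genes of amino acid transport and polyamines 14 were lower and 1 higher (median -1.23). Slc7a5, a transporter of large neutral amino acids, was at 24.6 against 108 CPM and Bcat1, a branched-chain aminotransferase, at 16.2 against 80.4 CPM. The higher member was Ass1, argininosuccinate synthase, with which cells make arginine from citrulline, at 130 CPM in 72hrs-MDSC and 30.0 CPM in 24hrs-MDSC, and at 57.1 CPM in 72hrs-DC and 20.5 CPM in 24hrs-DC.

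Stress pathways of protein synthesis were also lower as lists, with single members against the trend. Of 32 integrated stress response genes 23 were lower and 3 higher (median -0.96, against -0.56 without MDSCs). The tRNA synthetase genes Aars and Iars were at 93.8 and 25.2 CPM in 72hrs-MDSC and at 347 and 71.4 CPM in 24hrs-MDSC. The higher members were Ddit3, which encodes CHOP, at 36.9 against 8.06 CPM, Asns, asparagine synthetase, at 76.4 against 28.7 CPM, and Pycr1, of proline synthesis, at 13.3 against 7.54 CPM. Of 34 chaperones and unfolded protein response genes 19 were lower and 1 higher (median -0.61, against -0.63 without MDSCs). Of all genes 42.0% were lower and 16.9% higher, with a median of -0.41, so this list lay not far below them. Hsph1, a heat shock protein, was at 13.9 against 120 CPM and Hspa5, the endoplasmic reticulum chaperone BiP, at 85.6 against 370 CPM, while Xbp1 was at 76.9 against 43.3 CPM.

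Most measured hypoxia-inducible and glycolytic genes stayed within 1.5-fold over the course with MDSCs. Of 27 measured hypoxia genes 8 were higher, 4 lower and 15 between, with a median of 0.14, whereas without MDSCs 30 of 33 were higher, with a median of 2.40. Of 24 glycolysis genes 6 were higher and 5 lower (0.12), against 20 higher and 4 lower of 26 without MDSCs (1.70). Aldoc, aldolase C, had the largest ratio of both lists, at 22.3 CPM in 72hrs-MDSC and 0.290 CPM in 24hrs-MDSC, but was at 168 CPM in 72hrs-DC and 0.247 CPM in 24hrs-DC. Bnip3, a mitophagy receptor, was at 46.4 CPM in 72hrs-MDSC and 7.10 CPM in 24hrs-MDSC, and at 347 CPM in 72hrs-DC and 2.92 CPM in 24hrs-DC. Slc2a3, the glucose transporter GLUT3, was at 15.3 CPM in 72hrs-MDSC and 10.3 CPM in 24hrs-MDSC, and at 197 CPM in 72hrs-DC and 8.11 CPM in 24hrs-DC. Slc2a1, the transporter GLUT1, was lower with MDSCs, at 14.7 against 34.7 CPM, and at 99.9 CPM in 72hrs-DC and 27.8 CPM in 24hrs-DC. Egln3 and Egln1, oxygen-sensing prolyl hydroxylases, were at 24.3 and 15.7 CPM in 72hrs-MDSC, at 33.1 and 21 CPM in 24hrs-MDSC, and at 186 and 88.1 CPM in 72hrs-DC. Hif1a, which encodes the oxygen-regulated factor itself, was at 82.2 CPM in 72hrs-MDSC and 55.3 CPM in 24hrs-MDSC, and at 87.7 CPM in 72hrs-DC and 58.8 CPM in 24hrs-DC. Pfkl, the liver-type phosphofructokinase, moved in opposite directions, with 34.7 CPM in 72hrs-MDSC and 87.0 CPM in 24hrs-MDSC, and 120 CPM in 72hrs-DC and 59.7 CPM in 24hrs-DC. A median cell had a hypoxia sum of 99 adjusted counts in 72hrs-MDSC and 117 in 24hrs-MDSC. The sum of 35.7% of the 72hrs-MDSC cells lay below the 5th percentile of 24hrs-MDSC and that of 5.50% above its 95th percentile, and that of 99.0% of the 72hrs-DC cells exceeded the 95th percentile of 24hrs-DC.

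The promoters of Bnip3 and Ankrd37 are printed because the courses differed widely in these hypoxia genes, by a log2 difference of -4.18 for Bnip3 and -4.31 for Ankrd37. Capitals mark the core of the hypoxia response element, ACGTG or GCGTG on either strand, and both windows are from RefSeq on the minus strand of GRCm38.p6. They are chr7:138909457-138909756 for Bnip3 and chr8:45999801-46000100 for Ankrd37, an ankyrin repeat gene at 20.4 CPM in 72hrs-MDSC and 29.0 CPM in 24hrs-MDSC, and at 235 CPM in 72hrs-DC and 16.9 CPM in 24hrs-DC.
Bnip3: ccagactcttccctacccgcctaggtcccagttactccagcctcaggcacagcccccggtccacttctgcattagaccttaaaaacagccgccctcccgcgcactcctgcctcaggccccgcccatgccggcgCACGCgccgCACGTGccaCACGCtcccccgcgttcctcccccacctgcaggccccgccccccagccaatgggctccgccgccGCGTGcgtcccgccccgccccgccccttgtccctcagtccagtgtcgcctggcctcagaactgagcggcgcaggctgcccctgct
Ankrd37: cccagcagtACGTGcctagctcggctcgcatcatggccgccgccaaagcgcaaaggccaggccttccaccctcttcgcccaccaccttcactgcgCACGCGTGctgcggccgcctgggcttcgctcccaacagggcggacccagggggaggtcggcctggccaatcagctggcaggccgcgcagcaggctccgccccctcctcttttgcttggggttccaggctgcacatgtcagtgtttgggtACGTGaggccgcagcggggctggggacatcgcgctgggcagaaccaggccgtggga
Matches numbered 5 in Bnip3, where CACGTG counts on each strand, and 4 in Ankrd37. The core was present in 31 of 33 hypoxia list members and 23 of 27 glycolysis members with a promoter, but it is short and was found in 66.6% of all 10165 genes.

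Most respiratory chain and redox genes stayed within 1.5-fold. Of 62 nuclear respiratory chain genes 13 were higher and 2 lower (median 0.34, against 0.24 without MDSCs). Ndufa9, a complex I subunit, was at 148 CPM in 72hrs-MDSC and 73.7 CPM in 24hrs-MDSC. Summed over the list, 77.2% of the 72hrs-MDSC cells lay above the 95th percentile of 24hrs-MDSC, against 26.1% of the 72hrs-DC cells above that of 24hrs-DC. Of 13 mitochondrially encoded genes 7 were lower and 3 higher (median -0.69): mt-Cytb was at 539 against 1242 CPM and mt-Co1 at 6866 against 2751 CPM, so genes of one genome moved in opposite directions. Of 28 redox genes 8 were higher and 4 lower (median 0.21). Glrx, glutaredoxin, was at 118 against 7.89 CPM, Fth1, the ferritin heavy chain, at 1742 against 758 CPM, and Txnrd1, thioredoxin reductase, at 44.3 against 106 CPM. Of 31 genes of cholesterol and fatty acid synthesis 11 were higher and 6 lower (median 0.04, against 1.09 without MDSCs). Scd2, a fatty acid desaturase, was at 117 CPM in 72hrs-MDSC and 23.2 CPM in 24hrs-MDSC, Mvd, of the mevalonate pathway, at 51.3 against 14.8 CPM, and Fasn, fatty acid synthase, at 20.2 against 66.2 CPM.

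Metallothioneins, small proteins that bind zinc and copper, rose while most zinc transporters were lower. Mt1 was at 368 CPM in 72hrs-MDSC and 35.0 CPM in 24hrs-MDSC (log2 ratio 3.39), and Mt2 at 260 and 12.5 CPM (4.38). Mt3, a brain-enriched relative, was at 18.9 and 0.145 CPM. Without MDSCs the ratio was larger for Mt1, at 1377 CPM in 72hrs-DC and 11.5 CPM in 24hrs-DC, and for Mt2, at 635 and 5.31 CPM. For Mt3 it was smaller, at 8.33 and 0.165 CPM. Mt1 was above 0 in 79.7% of the 72hrs-MDSC cells (exact 95% interval 78.6 to 80.8%) and 22.6% of the 24hrs-MDSC cells (20.9 to 24.3%). Within 72hrs-MDSC, Mt2 was above 0 in 71.7% of the cells with Mt1 and 27.1% of those without. The list as a whole had 8 of 13 members lower and 3 higher, the rest being zinc carriers and a regulator: Slc39a7 was at 27.8 against 70.0 CPM, Slc30a5 at 8.69 against 24.6 CPM and Mtf1, the metal-responsive factor, at 11.2 against 36.3 CPM. Its median log2 ratio was -0.79, and 3.39 at a minimum level of 50 CPM, a level few other members reach. The same doubt about shared reads holds for Mt1 and Mt2. Their promoters are shown with the core of the metal response element, TGCACNC or TGCGCNC on either strand, in capitals, at chr8:94178839-94179138 for Mt1 and chr8:94172368-94172667 for Mt2, both plus strand in RefSeq (GRCm38.p6).
Mt1: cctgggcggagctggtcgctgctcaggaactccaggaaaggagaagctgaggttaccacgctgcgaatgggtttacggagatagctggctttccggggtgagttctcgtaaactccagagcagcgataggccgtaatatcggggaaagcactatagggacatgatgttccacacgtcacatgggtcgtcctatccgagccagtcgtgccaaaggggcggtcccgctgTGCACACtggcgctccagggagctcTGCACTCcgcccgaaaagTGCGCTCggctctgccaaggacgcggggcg
Mt2: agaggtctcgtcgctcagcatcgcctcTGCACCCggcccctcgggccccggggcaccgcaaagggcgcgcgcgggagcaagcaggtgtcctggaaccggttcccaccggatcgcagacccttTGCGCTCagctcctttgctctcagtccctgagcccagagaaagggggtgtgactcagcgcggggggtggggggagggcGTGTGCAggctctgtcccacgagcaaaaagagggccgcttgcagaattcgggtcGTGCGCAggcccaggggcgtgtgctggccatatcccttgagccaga
Mt1 held 3 matches and Mt2 held 4. The core was found in 6 of 13 list members and in 39.7% of all 10165 genes with a promoter.

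**Figure D4:**
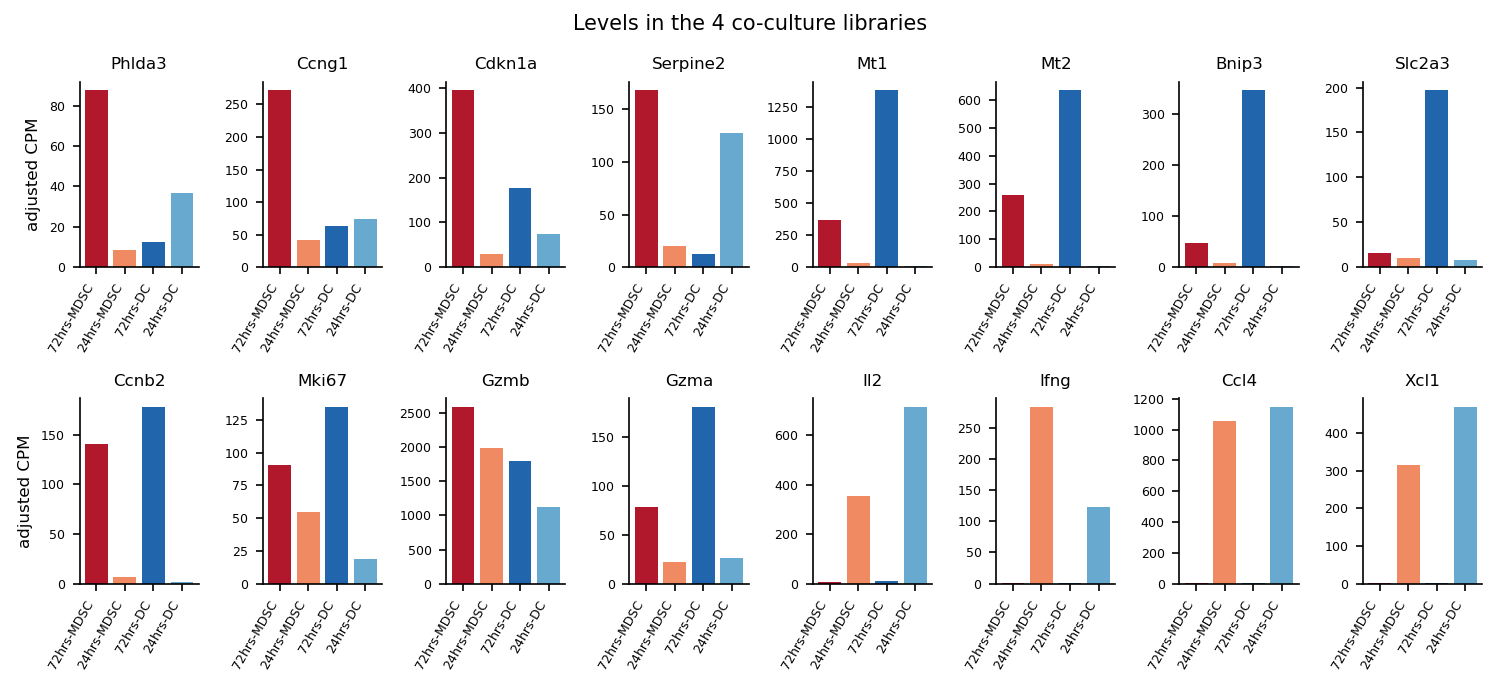
Bars give the level (adjusted CPM, each axis from 0) of 16 genes in the 4 co-culture libraries, 1 library per bar and no error because there are no replicates. Phlda3, Ccng1, Cdkn1a and Serpine2 are highest in 72hrs-MDSC, Mt1, Mt2, Bnip3 and Slc2a3 in 72hrs-DC, and Il2, Ifng, Ccl4 and Xcl1 are high at 24 h in both courses.

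Interferon response and antigen presentation genes were higher in both courses. Of 33 interferon response genes 18 were higher and 3 lower (median 0.67, against 0.94 without MDSCs), with Gbp7, a guanylate-binding protein, at 36.0 against 5.71 CPM and Psmb9, an immunoproteasome subunit, at 449 against 121 CPM. Irgm1 and Ifi47, GTPases induced by interferon gamma, were lower, at 13.5 against 24.2 CPM and 46.5 against 75 CPM. Of 12 antigen presentation genes 7 were higher and 1 lower (0.84). The lower member was Cd74, the class II invariant chain, at 15.7 CPM in 72hrs-MDSC and 24.7 CPM in 24hrs-MDSC. H2-Eb1, a class II beta chain, was at 34.7 CPM in 72hrs-MDSC and 0.551 CPM in 24hrs-MDSC and above 0 in 25.8% and 0.757% of the cells, whereas it was at 1.27 CPM in 72hrs-DC and 1.07 CPM in 24hrs-DC. The class II gene H2-Aa was near 0 in both, at 0.306 and 0.609 CPM, and H2-Ab1 was at 16.0 and 1.42 CPM, against 255 CPM in 72hrs-DC. Markers of dendritic and B cells, other carriers of class II, moved unevenly beside it. Itgax was above 0 in 4 cells of 72hrs-MDSC and 5 cells of 24hrs-MDSC, and Cd79a in 5 and 2 cells. The sum of the B cell list was 38.3 CPM in 72hrs-MDSC and 9.13 CPM in 24hrs-MDSC over 5 markers, with Cd79b at 27.5 against 4.47 CPM and above 0 in 1535 and 139 cells, and Fcmr at 10.7 against 2.46 CPM. The dendritic cell list summed to 358 CPM in 72hrs-MDSC and 474 CPM in 24hrs-MDSC over 11 markers. Among these Ccr7 was at 114 against 298 CPM, Cst3 at 154 against 84.6 CPM and Batf3 at 83.3 against 66.1 CPM. Ccr7 and Batf3 also stand in the lists of T cell genes above, so this sum is no measure of dendritic cell RNA alone. Zbtb46 was at 0.386 against 1.30 CPM and Fscn1 at 0.586 against 0.870 CPM. The part of these markers in the H2-Eb1 result was not tested. H2-DMa, a peptide-loading chaperone, was at 93.3 against 12.6 CPM and H2-Oa at 35.0 against 3.10 CPM.

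Regulators of survival and death moved in both directions. Of 26 apoptosis regulators 8 were higher and 12 lower (median -0.31), against 16.9% and 42.0% of all genes. Bcl2 was at 398 CPM in 72hrs-MDSC and 122 CPM in 24hrs-MDSC, and Bcl2l1, which encodes BCL-XL, at 35.8 against 142 CPM. Casp6 was at 23.2 against 5.74 CPM, and Fadd, the adaptor of death receptors, at 5.83 against 20.6 CPM. Of 12 genes responsive to TGF-beta 7 were lower and 2 higher (median -1.23): Skil, a feedback repressor, was at 3.96 against 26.0 CPM and Pmepa1 at 9.29 against 37.1 CPM. The member with the largest upward ratio was Serpine2, protease nexin 1, at 168 CPM in 72hrs-MDSC and 19.9 CPM in 24hrs-MDSC. Of 10 genes responsive to prostaglandin and cAMP 5 were higher and 5 lower. Cd55, a complement inhibitor, was at 23.7 against 3.22 CPM, the phosphodiesterase gene Pde3b at 31.9 against 20.5 CPM, and Rgs1, which dampens chemokine receptors, at 14.7 against 38.4 CPM.

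Across genes, the change from 24 h to 72 h was similar in rank with and without MDSCs. Over 3136 genes at 50 CPM or more in at least 1 co-culture library and 5 CPM or more in all 4, the log2 ratios of the courses had a Pearson r of 0.868 and a Spearman rho of 0.875. These describe genes of 4 libraries, and genes are not independent replicates. Of the 271 genes at least 2-fold higher with MDSCs, 234 were also at least 2-fold higher without them, and of the 819 lower genes 601 were also lower. The courses differed by 2-fold or more for 52 genes higher and 200 genes lower with MDSCs, and by 4-fold or more for 7 and 34. The median difference was -0.11.

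Among these 3136 genes the largest differences upward with MDSCs were led by Serpine2, with log2 ratios of 3.08 with MDSCs and -3.35 without, and by Phlda3 (3.37 and -1.56), Ldhb, the heart-type lactate dehydrogenase subunit (2.91 and -0.20), and Ccng1 (2.70 and -0.25). S100a6 and Cdkn1a followed, and Cd81, a tetraspanin, was at 133 CPM in 72hrs-MDSC and 18.1 CPM in 24hrs-MDSC, and at 42.9 CPM in 72hrs-DC and 21.9 CPM in 24hrs-DC. The others of the 10 largest were Crip2, a LIM protein (1.41 and -0.90), Cd200 (-2.45 and -4.40) and Thyn1 (0.90 and -0.96). The minimum of 5 CPM in all 4 libraries left out genes near 0 in 24hrs-MDSC that also differed widely: Cox6b2 was at 17.4 CPM in 72hrs-DC and 12.5 CPM in 24hrs-DC, a difference of 6.64 between the courses. Dcxr was at 13.6 CPM in 72hrs-DC and 5.84 CPM in 24hrs-DC, and Psrc1 at 27.9 and 15.9 CPM, with differences of 5.81 and 5.61. The difference was 4.81 for S100a4, and 5.73 for H2-Eb1, which also stayed below 50 CPM in all 4 libraries. Downward, the minimum left out Bnip3, among others, at 2.92 CPM in 24hrs-DC and with a difference of -4.18. The 10 largest differences downward were those of Ankrd37, Slc2a3, Egln3, Egln1, Slc2a1, Ero1l, an oxidoreductase of the endoplasmic reticulum (-0.86 and 2.70), Hilpda, a lipid droplet protein (-0.68 and 2.57), Gbe1, the glycogen branching enzyme (-0.19 and 3.54), Mt1 and Scd2. Of these, Gbe1, Mt1 and Scd2 are not in the hypoxia list. No test of these differences was possible with 1 library per group.

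**Figure D5:**
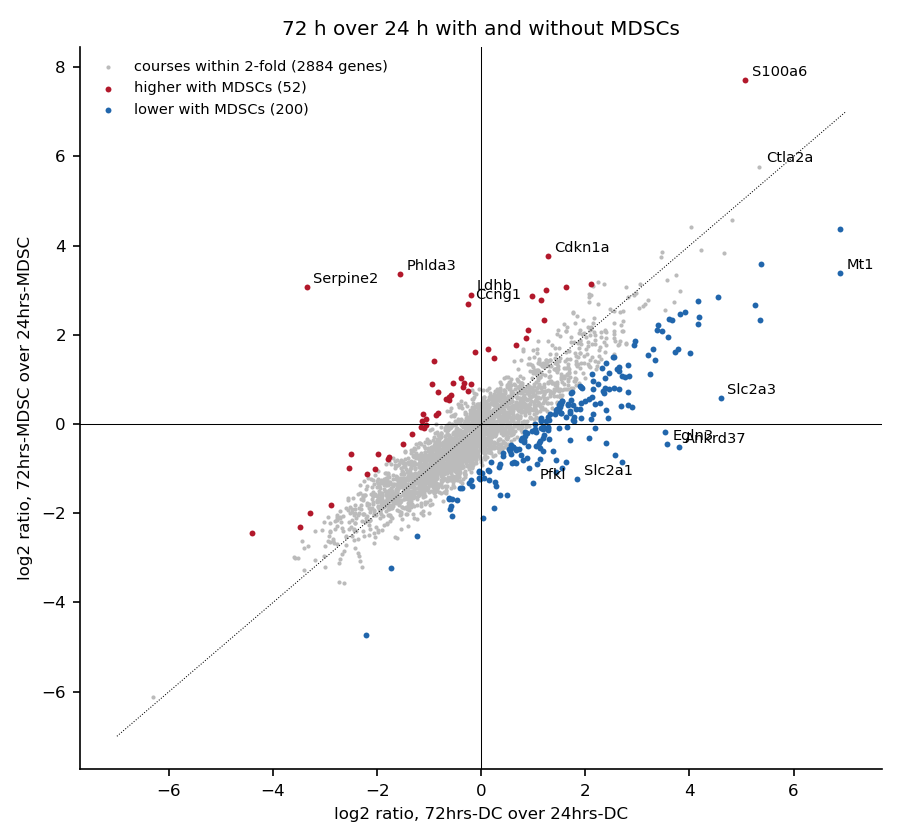
Each point is 1 of 3136 genes, with its log2 ratio of 72hrs-DC over 24hrs-DC on the x axis and of 72hrs-MDSC over 24hrs-MDSC on the y axis, and the dotted line marks equal ratios. The 52 genes at least 2-fold higher with MDSCs (red) are led by Serpine2 and Phlda3, and the 200 at least 2-fold lower (blue) include Slc2a3, Ankrd37 and Mt1.

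The genes that varied most across cells differed in part between the libraries. Among genes at 50 CPM or more in that library, the ratio of variance to mean across cells in 24hrs-MDSC was highest for Ifng (79.2), Il2 (60.5) and Ccl4 (60.4), each found in part of the cells. In 72hrs-MDSC it was highest for S100a6 (64.9), Gzma (45.0) and S100a4 (24.3). Below 50 CPM, it was 1.03 for Il2 and 5.55 for Ifng in 72hrs-MDSC, and 48.2 for Gzma in 24hrs-MDSC. Gzmb had 17.6 in 72hrs-MDSC and 38.4 in 24hrs-MDSC. Actb (19.7 and 30.6) and Tmsb4x (18.9 and 19.6) were also high in both. In 24hrs-MDSC Ccl4 was above 0 in 88.6% of the cells with Ccl3 and 61.2% of those without. Ifng was above 0 in 29.5% of the cells with Il2 and 27.7% of those without. At 24 h the shares with and without the partner gene thus lay farther apart for the chemokine pair than for the cytokine pair. In 72hrs-MDSC Phlda3 was above 0 in 68.9% of the cells with Serpine2 and 45.0% of those without, and Dcxr in 79.4% of the cells with Phlda3 and 61.0% of those without. Cells above 0 for S100a4 made up 37.1%, 29.3% and 30.1% of the groups of 72hrs-MDSC with the lowest, middle and highest G2 and M phase sum, with S100a6 at 3591, 2323 and 2001 CPM in the same groups. Serpine2 was at 174, 151 and 179 CPM over those groups of 72hrs-MDSC and at 23.7, 18.9 and 17.3 CPM over the groups of 24hrs-MDSC. In 24hrs-DC, split within its own library, Serpine2 was at 270, 78.3 and 37.6 CPM, so its level there was higher in cells of low mitotic gene level. The median G2 and M phase sums of the groups were 32, 57 and 106 in 24hrs-DC and 60, 104 and 144 in 24hrs-MDSC. The groups of these libraries thus cover unlike ranges.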

How the data were processed

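Per the submitters' processing notes, reads were processed with Cell Ranger 2.0.1 and Seurat on genome build mm10. The authors deposited natural log values per gene and cell, and their adjustment to a near constant total is not described in the sources used here. The exponential minus 1 gave whole numbers in every cell of the table (tolerance 1e-06). These adjusted counts were summed over the cells of a library and divided by their total, as counts per 1000000 (CPM). Groups of 1 library allow no test. Genes were called at 2-fold and 50 CPM in either library, list members at 1.5-fold and 10 CPM. Intervals are exact Clopper-Pearson at 95% and cover counting error only.

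Genes were named by rule: the 12 largest ratios each way, 3 members per list each way at 20 CPM, 10 largest course differences each way, genes moving in opposite directions, a fixed list, and the highest ratios of variance to mean. Any further member named was chosen after its values were seen. Members and lists were chosen with earlier results of these data known. GENCODE M21 held 13461 of 13911 symbols, and RefSeq promoters (GRCm38.p6) matched 171 named genes. Doublets were not treated. The scripts were tested on simulated data and used Python 3.11.15, numpy 2.4.6, pandas 2.3.3, scipy 1.17.1 and matplotlib 3.10.9. Alternatives changed the weighting, the total, the centring, the minimum level and the cells kept.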

Additional observations from a re-analysis of the deposited data

Results flagged for a closer look

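Serpine2 and Pfkl moved in opposite directions with and without MDSCs. Serpine2 was at 168 CPM in 72hrs-MDSC and 19.9 CPM in 24hrs-MDSC, but at 12.5 CPM in 72hrs-DC and 128 CPM in 24hrs-DC, a difference of 6.43 between the log2 ratios. Pfkl was at 34.7 CPM in 72hrs-MDSC and 87.0 CPM in 24hrs-MDSC, but at 120 CPM in 72hrs-DC and 59.7 CPM in 24hrs-DC, a difference of -2.33. The difference was not tested for either gene, because each course compares 2 single libraries.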

How the results depend on the processing

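Of 2974 genes at 50 CPM, the counts of 271 higher and 819 lower became 761 and 1760 at a minimum of 10 CPM and 82 and 185 at 200 CPM, and stayed within 1.5 times under the other settings. Among the 227 named genes with a ratio, none past 2-fold reversed direction under the 6 settings tried. Smaller ratios were not counted as reversals. Centring subtracted a median of -0.23 from every log2 ratio, so small negative ratios, such as that of Id2 (-0.10), turned positive. List medians (log2) crossed the 1.5-fold size as follows. With ratios centred: granule genes 0.80, T cell receptor complex 0.64, naive genes 0.81, metallothionein list -0.56, chaperones -0.38, S phase -0.46, mitochondrially encoded -0.46. With a total without ribosomal protein and mitochondrial genes: granule genes 0.71, naive genes 0.73, chaperones -0.47, S phase -0.54, mitochondrially encoded -0.54. With mean natural log values: granule genes 0.87, apoptosis regulators -0.74, cAMP genes -0.64. With cells weighted equally: naive genes 0.59. In cells with a G2 and M phase sum of at most 102: granule genes 0.65, naive genes 0.72, interleukin 2 targets -0.58, interferon genes 0.55, antigen presentation 0.51, apoptosis regulators -0.63, histones 0.66, G1 regulators 0.039. In these cells G2 and M phase genes reversed to -0.17, but the selection was made on these same genes. At a minimum of 50 CPM, for 31 of 34 lists: granule genes 1.04, costimulatory receptors -0.68, interferon genes 0.52, apoptosis regulators -0.80, and 2 reversals, the metallothionein list at 3.39 and G1 regulators at -0.73, both with fewer genes. With no minimum: inhibitory receptors 0.73, naive genes 0.65, interferon genes 0.44, and killer lectin genes reversed to -0.44. No paired analysis was possible because each group is 1 library with replicate number 1, and for the same reason no replicate could be left out. The depth before adjustment is unknown, so levels near 1 CPM carry unknown counting error.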

Other observations

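The chemokine genes Cxcl10 and Ccl9 were also lower, at 0.733 and 0.0799 CPM in 72hrs-MDSC and 22.1 and 17.5 CPM in 24hrs-MDSC. Selenbp1, a selenium-binding protein of the hypoxia list, was at 14.8 CPM in 72hrs-MDSC and 0.203 CPM in 24hrs-MDSC, and at 187 CPM in 72hrs-DC and 0.123 CPM in 24hrs-DC. Anxa2, an annexin, was at 145 CPM in 72hrs-MDSC and 22.7 CPM in 24hrs-MDSC, and at 566 CPM in 72hrs-DC and 14.7 CPM in 24hrs-DC. Gzmf was at 15.2 CPM in 72hrs-MDSC and 1.28 CPM in 24hrs-MDSC, and at 1.41 CPM in 72hrs-DC and 1.15 CPM in 24hrs-DC. Zmat3, a p53 target, was at 38 CPM in 72hrs-MDSC and 7.86 CPM in 24hrs-MDSC, and at 7.23 CPM in 72hrs-DC and 20.6 CPM in 24hrs-DC.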
